A study of Mus musculus with 10 samples.

Results

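Reactive astrocyte genes were followed in hippocampal RNA of female mice of the P301S tauopathy line: Gfap, Vim, Serpina3n, Lcn2, Cd44, Timp1, Cp, Aspg, S1pr3 and Cd109. The 10 genes were chosen by name from gene panels in common use, with earlier results of these data known. They were found among the 56884 genes of the count table through their Ensembl identifiers. All 10 had enough counts to be tested, beside 17622 genes tested in all. The mice carried human Tau with the P301S mutation, expressed from the mouse Prnp promoter, on a mixed B6 and C3 background, and both groups carried this transgene, so no mouse without Tau pathology enters the comparison. At 6 months of age, ovary-intact females received under the skin a tube packed with 10 mm of dihydrotestosterone powder (DHT, an androgen that cannot be converted to oestrogen; n = 5) or an empty tube (void; n = 5). Hippocampi were taken 12 weeks later, at 9 to 9.5 months, and each mouse gave 1 mRNA library. The comparison asks how these genes stood after androgen exposure in female tauopathy.

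Astrocytes answer injury, protein aggregates and inflammation by changing shape and gene expression, a state called reactive. They build up intermediate filaments (GFAP and vimentin), secrete protease inhibitors and acute-phase proteins, and alter their surface receptors and contacts with the matrix. Cytokines released by microglia and signals through the gp130 receptor and the transcription factor STAT3 are well-known inducers. Panels of such genes were drawn up in mice given lipopolysaccharide or a stroke: a pan-reactive panel, an A1 panel tied to inflammation and an A2 panel tied to ischaemia. All of the genes followed here except Cd109 belong to the pan-reactive panel, and Cd109 belongs to the A2 panel.

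Libraries held between 27188854 and 47113661 counts, and genes encoded by mitochondrial DNA took 1.53% to 2.39% of them. Void libraries carry positions 4 to 11 in the sequencing labels and DHT libraries positions 18 to 23, and treatment cannot be told apart from that order. The tissue showed its astrocytes: all 15 astrocyte identity markers examined were tested, with a summed level between 8362 and 11260 CPM (counts scaled to a common library size after normalization for library composition) in void mice and between 9053 and 10741 CPM in DHT mice. Choroid plexus epithelium was present in differing amounts. Its 12 markers summed to between 117 and 1932 CPM in void mice, highest in void mouse 9 and lowest in void mouse 5, and to between 2220 and 3182 CPM in DHT mice. Values of the astrocyte, microglia, choroid plexus and ependymal markers therefore stand beside the results that follow.

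DHT-treated females had higher RNA of 6 of the 10 genes: Gfap, Vim, Serpina3n, Timp1, Aspg and S1pr3. Their log2 fold changes, DHT over void, lay between 0.81 and 2.04, which is 1.75-fold to 4.10-fold. Cd44, Lcn2, Cp and Cd109 did not pass the test. All 10 log2 fold changes were positive, so 0 were called lower in edgeR, in DESeq2 or at an unadjusted p. The limit was an adjusted p of 0.05 (Benjamini-Hochberg, over all tested genes) in edgeR's quasi-likelihood test, and 5.22% of all tested genes were called higher at it and 0.261% lower. With a log2 fold change above 1 as a further limit, 3 of the 10 were called (Gfap, Timp1 and Aspg), against 2.17% of all tested genes. The same 3 passed at an unadjusted p under 0.05 with that fold limit, against 2.87% of all tested genes. The median log2 fold change of the 10 genes was 0.86, against 0.00937 over all tested genes. In bulk tissue, more astrocytes and more RNA per astrocyte cannot be told apart. Without void mouse 11, 2 of the genes passed (Gfap and Vim), and 1.97% of all tested genes were called higher. The same 2 passed without DHT mouse 1, against 2.23% of all tested genes. Without void mouse 4, 3 passed, against 2.77%. With the level of choroid plexus markers as a covariate, 0 of the 10 genes and 0 of all tested genes were called higher after adjustment in edgeR. In that fit 7 of the 10 were higher at an unadjusted p under 0.05, against 5.66% of all tested genes.

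**Figure D1:**
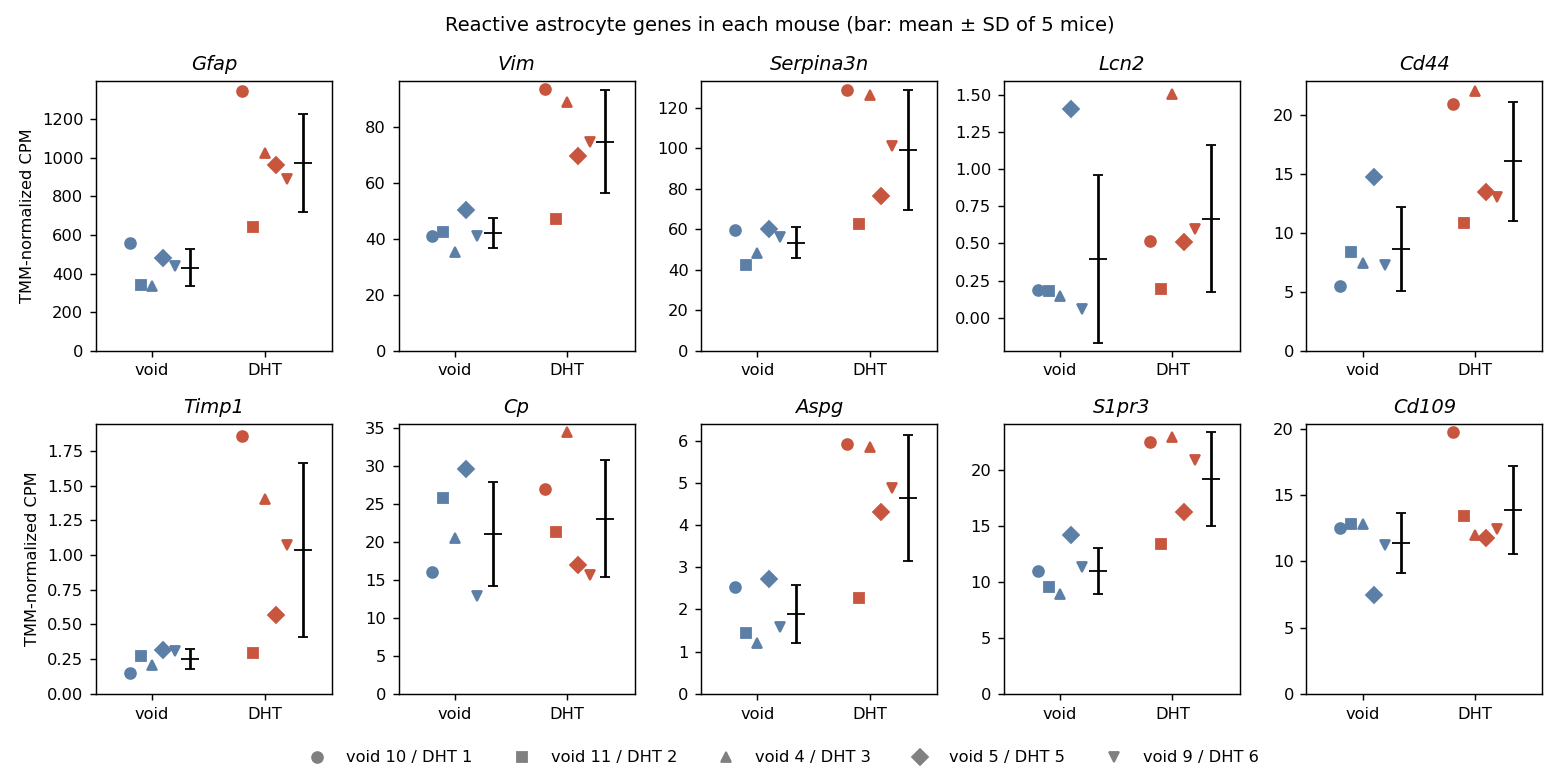
Level of each of the 10 genes, in CPM normalized by the TMM method, in 5 void mice (blue) and 5 DHT mice (red), with the mean ± SD as a black bar beside the points. Symbols name the mice and do not pair them; all DHT points of Gfap and Serpina3n lie above all void points, while DHT mouse 2 lies near the void mice for most genes.

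The filament genes come first. Gfap (ENSMUSG00000020932.15) encodes glial fibrillary acidic protein, the main filament of astrocytes and the usual marker of their reactivity. In void mice 4, 5, 9, 10 and 11, Gfap was at 335, 481, 439, 559 and 341 CPM. In DHT mice 1, 2, 3, 5 and 6, it was at 1348, 644, 1025, 965 and 891 CPM. Every DHT mouse was above every void mouse, with DHT mouse 2 closest to the void group and DHT mouse 1 well above the rest. Groups that part in this way, with DHT above, were found for 5.39% of all tested genes. The rise of Gfap was 1.18 on the log2 scale (SE 0.19, edgeR adjusted p = 0.00761), and a two-sided exact permutation test of Gfap alone gave p = 0.00794, the smallest that 5 mice against 5 allow.

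Vim (ENSMUSG00000026728.10) encodes vimentin, the filament protein that polymerizes with GFAP in reactive astrocytes and is also made by vascular, ependymal and immune cells. In the same order of mice, Vim was at 35.5, 50.4, 41.1, 41.1 and 42.5 CPM with void and at 93.6, 47.1, 88.9, 69.5 and 74.8 CPM with DHT. Only DHT mouse 2 fell within the void range, below void mouse 5. Vim rose by 0.83 in log2 fold change (SE 0.16, edgeR adjusted p = 0.0131). Of 3 other filament genes tested, 0 passed in edgeR or DESeq2 and 1 had an unadjusted p under 0.05. The log2 fold changes of Nes and Synm, which encode nestin and synemin, were 0.26 (edgeR adjusted p = 0.187) and 0.18 (edgeR adjusted p = 0.394), and that of the linker gene Plec was 0.01.

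The promoters of 9 of the 10 genes were matched by symbol in the RefSeq table for GRCm38.p6, with Cd109 unmatched. The 250 bases before the start site of Gfap, the gene with the highest level, of Vim, its filament partner, and of Timp1, the gene with the largest fold change, are shown as the DNA beside which these RNA levels can be read. Capitals mark matches to the motifs named after them.

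Gfap, chr11:102897201-102897450, minus strand: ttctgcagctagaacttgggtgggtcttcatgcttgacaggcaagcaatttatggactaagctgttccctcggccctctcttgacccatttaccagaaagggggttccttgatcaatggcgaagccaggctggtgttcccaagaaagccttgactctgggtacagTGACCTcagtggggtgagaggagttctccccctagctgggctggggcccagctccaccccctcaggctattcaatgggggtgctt

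Vim, chr2:13574061-13574310, plus strand: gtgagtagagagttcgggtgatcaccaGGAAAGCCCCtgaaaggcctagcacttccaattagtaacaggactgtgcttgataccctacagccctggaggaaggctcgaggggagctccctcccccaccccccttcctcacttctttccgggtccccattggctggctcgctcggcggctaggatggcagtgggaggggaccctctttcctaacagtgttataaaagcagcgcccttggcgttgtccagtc

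Timp1, chrX:20869916-20870165, plus strand: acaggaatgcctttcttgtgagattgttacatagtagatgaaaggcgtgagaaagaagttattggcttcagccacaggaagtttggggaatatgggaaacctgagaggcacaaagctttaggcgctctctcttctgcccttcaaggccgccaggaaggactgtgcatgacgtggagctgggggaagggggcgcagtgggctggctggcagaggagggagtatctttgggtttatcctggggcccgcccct

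The motifs searched, on both strands of these 250 bases, were the STAT motif TTCNNNGAA, the AP-1 motif TGANTCA, the AGGTCA half-site bound by nuclear receptors such as TR4, and the NF-kB motif. Gfap holds 1 AGGTCA half-site, read on the other strand as TGACCT, that begins 85 bases before the start, and 14% of 32851 promoters in the table hold one in such a window. Vim holds 1 NF-kB match beginning 223 bases before the start, against 3.9% of promoters, and no motif overlapped another. Timp1, Serpina3n, Lcn2, Cd44, Aspg and S1pr3 held no match in the window, 1 of the 2 Cp promoters held an AP-1 match (6.75% of promoters), and the STAT motif was in none of the 10 promoter windows (7.02% of promoters).

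Among the secreted proteins, 2 genes rose and 2 did not pass the test. Serpina3n (ENSMUSG00000021091.9) encodes a secreted inhibitor of serine proteases. In void mice it was at 48.5, 59.99, 56.00, 59.6 and 42.4 CPM and in DHT mice at 129, 62.6, 126, 76.6 and 101 CPM. The groups did not overlap, although DHT mouse 2 lay only just above void mice 5 and 10. Serpina3n rose by 0.90 in log2 fold change (SE 0.19, edgeR adjusted p = 0.0177; exact permutation p = 0.00794, two-sided). Serpina3n sits in a cluster of near-identical genes that may have taken some of its reads, and 10 neighbours of the cluster together held 0.614% to 1.67% as many counts as Serpina3n in each library.

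Timp1 (ENSMUSG00000001131.12) encodes an inhibitor of matrix metalloproteinases and was among the least abundant of the genes. Its levels were 0.211, 0.319, 0.3099, 0.147 and 0.269 CPM with void and 1.86, 0.296, 1.402, 0.568 and 1.07 CPM with DHT. Counts per library were 4 to 10 with void and 12 to 68 with DHT, so its place in the test depended on the DHT libraries. Of the DHT mice, 4 were above every void mouse and DHT mouse 2 was within the void range. Timp1 had the largest change of the 10 genes, a log2 fold change of 2.04 (SE 0.46, edgeR adjusted p = 0.0240). In 5 of the 10 fits that each left out 1 mouse, its adjusted p was over 0.05, at most 0.0709.

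Lcn2 (ENSMUSG00000026822.15) encodes lipocalin 2, which binds bacterial iron carriers and is strongly induced in acute inflammation. Its levels were 0.148, 1.405, 0.06199, 0.184 and 0.1796 CPM with void and 0.519, 0.197, 1.51, 0.508 and 0.595 CPM with DHT, from 2 to 72 counts per library. Void mouse 5 was close to the highest DHT mouse, and the other 4 void mice were below every DHT mouse. Its log2 fold change was 0.81 with a 95% confidence interval from -0.78 to 2.39 (adjusted p = 0.656, edgeR). Without void mouse 5 it was 2.22, with an adjusted p of 0.0607.

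Cp (ENSMUSG00000003617.17) encodes ceruloplasmin, the copper-carrying enzyme that oxidizes iron for export from the cell. It ranged from 12.9 to 29.6 CPM with void and from 15.6 to 34.4 CPM with DHT, and the groups overlapped across nearly the whole range. The log2 fold change was 0.14 with a 95% confidence interval from -0.41 to 0.69 (adjusted p = 0.859, edgeR), and it was -0.08 without DHT mouse 3.

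Of the surface molecules, S1pr3 rose and Cd44 and Cd109 did not pass the test. S1pr3 (ENSMUSG00000067586.5) encodes a receptor for sphingosine 1-phosphate, a lipid signal, and is also made in the vessel wall. It was at 8.96, 14.2, 11.3, 10.99 and 9.55 CPM with void and at 22.5, 13.4, 22.9, 16.2 and 20.9 CPM with DHT. DHT mouse 2 was below void mouse 5, and the other 4 DHT mice were above all void mice. S1pr3 rose by 0.81 in log2 fold change (SE 0.16, edgeR adjusted p = 0.0163). A small overlap with a noncoding gene on the opposite strand, 1.01% of the exon length of S1pr3 in GENCODE M21, could carry shared counts if strand was not used.

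Cd44 (ENSMUSG00000005087.18) encodes the receptor for hyaluronan, a sugar polymer of the matrix, and is also found on leukocytes. It was at 7.39, 14.7, 7.25, 5.46 and 8.38 CPM with void and at 20.9, 10.8, 21.99, 13.5 and 13.03 CPM with DHT. Void mouse 5 was above 3 of the DHT mice, and the other void mice were below all DHT mice. Its log2 fold change was 0.89 (SE 0.27, edgeR adjusted p = 0.0795), with a 95% confidence interval from 0.32 to 1.47. DESeq2, which called 6.73% of all tested genes higher, gave 7 of the 10 genes, and the adjusted p of Cd44 in it was 0.0162, and without void mouse 5 in edgeR it was 0.0229.

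Cd109 (ENSMUSG00000046186.9) encodes a membrane protein that binds TGF-beta. It ranged from 7.47 to 12.8 CPM with void and from 11.8 to 19.7 CPM with DHT, with void mouse 5 lowest and DHT mouse 1 highest. The log2 fold change was 0.29 with a 95% confidence interval from -0.10 to 0.67 (adjusted p = 0.468, edgeR), and 0.09 without DHT mouse 1.

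Aspg (ENSMUSG00000037686.7) encodes an enzyme of the asparaginase family. It was at 1.204, 2.71, 1.58, 2.54 and 1.44 CPM with void and at 5.92, 2.27, 5.86, 4.31 and 4.88 CPM with DHT. DHT mouse 2 was between the void mice, and the other 4 were above all of them. Aspg rose by 1.31 in log2 fold change (SE 0.29, edgeR adjusted p = 0.0229), and its adjusted p was over 0.05 in 4 of the 10 fits that left out 1 mouse, at most 0.0784.

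Levels were also set side by side per kilobase of exon (GENCODE M21). In void mice, Gfap stood first at 102 ± 22.6 CPM per kilobase, then Serpina3n at 25.8 ± 3.70 and Vim at 8.88 ± 1.13 (SD, n = 5 each), and these 3 were apart beyond their spread. S1pr3 (2.47 ± 0.457), Cp (2.19 ± 0.715), Cd109 (1.65 ± 0.330) and Cd44 (1.27 ± 0.523) followed in CPM per kilobase (SD, n = 5 each), and each lay within the spread of its neighbour. Aspg (0.538 ± 0.195), Timp1 (0.283 ± 0.0812) and Lcn2 (0.151 ± 0.216) were lowest, in the same unit. With DHT, Gfap was at 231 ± 60.3 CPM per kilobase, Serpina3n at 48.0 ± 14.3 and Vim at 15.8 ± 3.87 (SD, n = 5 each), in the same order. The level of Timp1 with DHT, 1.17 ± 0.707 CPM per kilobase, was within the spread of that of Aspg, 1.32 ± 0.424 (SD, n = 5 each).

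Single mice were compared across the genes. Within the DHT group, mouse 2 was lowest for 8 of the 10 genes and for all 6 that rose, while mouse 1 was highest for 6 and mouse 3 for the other 4. Within the void group, mouse 5 was highest for 8 of the 10 genes and lowest for Cd109, while mouse 10 was highest for Gfap and lowest for Cd44 and Timp1. The map of levels by mouse shows the 10 genes above the summed markers of other cell types. DHT mouse 2 had 0.58 more Gfap on the log2 scale than the mean of the void mice, against 1.65 in DHT mouse 1. Void mouse 5 also had the most RNA of the astrocyte markers, 11260 CPM.

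**Figure D2:**
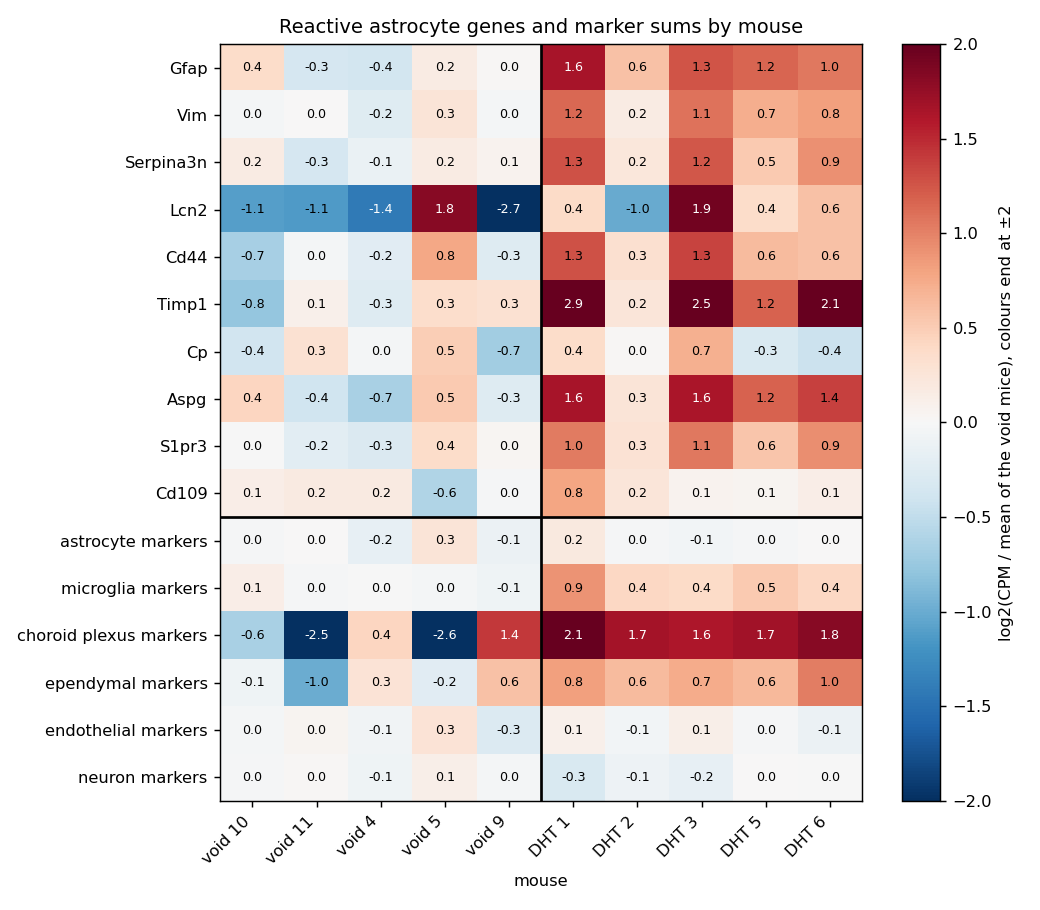
Each cell gives the log2 ratio of a gene's CPM, or of the summed CPM of a marker list, to the mean of the 5 void mice, for the 5 void and 5 DHT mice in columns. The 6 genes that rose are red in every DHT mouse and palest in DHT mouse 2, astrocyte marker sums stay between -0.17 and 0.26, and choroid plexus sums are lowest in void mice 5 and 11.

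Which genes had the profile most like that of Gfap over the 10 mice was measured as the mean absolute difference of standardized log2 CPM values. Among the 3 nearest of 17622 genes were C4b, which encodes complement C4 (0.0956), and Ctsz, which encodes cathepsin Z (0.113). The median distance over all genes was 1.08. The mean of C4b was 67.1 ± 16.9 CPM in void mice and 202 ± 52.1 CPM in DHT mice (SD, n = 5 each), a rise of 1.59 in log2 fold change (SE 0.21, edgeR adjusted p = 0.0067). Of the genes followed here, Aspg was nearest to Gfap (0.239), then Serpina3n (0.259), Vim (0.284) and S1pr3 (0.299), while Cp was farthest (1.07). Near-identical C4a could share reads with C4b.

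The astrocyte identity markers were compared with the reactive genes in the same libraries. Of the 15 markers, 0 were called in either direction by edgeR, 1 was called higher by DESeq2, and 4 were higher and 0 lower at an unadjusted p under 0.05. DESeq2 called 6.73% of all tested genes higher. The share of all tested genes at that unadjusted limit, without a fold limit, was not measured in the fit with treatment alone. This bears on the unadjusted counts of every list. Sox9, with the lowest p, had a log2 fold change of 0.32 (edgeR adjusted p = 0.0512), and Aqp4, the water channel of astrocyte endfeet, one of 0.41 (edgeR adjusted p = 0.117). The median over the list was 0.05. Relative to the mean log2 CPM of the 15 markers in the same mouse, Gfap was 1.06 higher with DHT, Serpina3n 0.75, Vim 0.69 and S1pr3 0.69 (two-sided exact permutation test, p = 0.00794 for each, without overlap between the groups). On this relative scale Timp1 was 1.53 higher (p = 0.0159), Aspg 1.16 higher (p = 0.0238) and Cd44 0.81 higher (p = 0.0317), each by the exact permutation test. Lcn2 differed by 0.98 (p = 0.198), Cp by 0.04 (p = 0.921) and Cd109 by 0.18 (p = 0.532) in the same exact test. These p values are not adjusted for the 10 genes, and the share of all tested genes without overlap on this scale was not measured.

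Microglia markers moved with the reactive genes. Of 8 microglia markers, 4 were higher with DHT, among them Aif1, Csf1r and Cx3cr1 with log2 fold changes of 0.86, 0.55 and 0.54, and the sum of the 8 ranged from 414 to 479 CPM with void and from 572 to 815 CPM with DHT, highest in DHT mouse 1. When the mouse left out was void mouse 4, 5 or 11 or DHT mouse 5, 2 of the markers were called. In those fits 1.97% to 3.8% of all tested genes were called higher. Relative to the mean of these markers in the same mouse, Gfap was 0.69 higher on the log2 scale (exact permutation p = 0.0159) and Aspg 0.79 higher (p = 0.0397). Timp1 differed by 1.16 (p = 0.0556), Serpina3n by 0.37 (p = 0.111), Vim by 0.32 (p = 0.127) and S1pr3 by 0.31 (p = 0.151) in the same exact test. The part of microglia in the levels of Vim, Cd44 and the other genes that they can express was not tested.

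Choroid plexus and ependymal markers moved with treatment too. All 12 choroid plexus markers had positive log2 fold changes, with a median of 2.15, and 4 were called higher by edgeR (Tmem72, Clic6, Otx2 and Kl), 7 by DESeq2, 10 by edgeR with no filter beyond 1 count and 12 at an unadjusted p under 0.05. Of all tested genes, edgeR called 5.22% higher, DESeq2 6.73%, and edgeR with no filter beyond 1 count 2.69%. With 1 mouse left out, edgeR called 12 without void mouse 9, and 0 when the mouse left out was void mouse 4, 10 or 11 or DHT mouse 1, 3 or 6. It called 1 without void mouse 5 or DHT mouse 5, and 2 without DHT mouse 2. Of all tested genes, 5.98% were called higher without void mouse 9, and 1.97% to 4.29% in the fits that called 0 of these markers. Of 5 ependymal markers, 0 were called by edgeR and 3 by DESeq2, 3 had an unadjusted p under 0.05, 5 were positive, and their sums did not overlap, at 11.9 to 35.3 CPM with void and 36.6 to 47.9 CPM with DHT. With the mean choroid plexus marker level as a covariate, the standard errors of the 6 genes that rose were larger and their calls were lost, with adjusted p values from 0.537 to 0.726 (edgeR). The log2 fold change was 1.11 for Gfap (SE 0.34), 0.96 for Vim (SE 0.28), 0.76 for Serpina3n (SE 0.33), 1.76 for Timp1 (SE 0.83), 1.62 for Aspg (SE 0.52) and 0.89 for S1pr3 (SE 0.29), between 84.5% and 124% of the values without the covariate. In that fit 7 of the 10 genes, Lcn2 and Cd44 among them and Timp1 not, were higher at an unadjusted p under 0.05, against 5.66% of all tested genes. The covariate moved Lcn2 to 3.75 (SE 1.29), Cp to 0.80 (SE 0.37), Cd44 to 1.35 (SE 0.44) and Cd109 to 0.04 (SE 0.29) on the log2 scale. These values ranged from 12.9% (Cd109) to 576% (Cp) of those without the covariate. Choroid plexus sums did not overlap between the groups (117 to 1932 CPM with void, 2220 to 3182 CPM with DHT), so this covariate and treatment cannot be fully told apart.

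Markers of further cell types were read in the same way. Of endothelial markers 0 of 5, of pericyte and smooth muscle markers 0 of 5, of oligodendrocyte markers 0 of 5 and of neuron markers 0 of 6 were called by edgeR or DESeq2, with median log2 fold changes of -0.05, -0.07, 0.19 and -0.11, and of these 1 oligodendrocyte marker had an unadjusted p under 0.05. Of 7 meningeal fibroblast markers 1 was higher, Igf2 (log2 fold change 1.68, edgeR adjusted p = 0.00931), and the median was -0.14. The 6 neutrophil markers, which bear on Lcn2, summed to between 0.197 and 1.14 CPM in every mouse and none had enough counts to be tested. Their sum in void mouse 5, where Lcn2 was highest in its group, was 0.543 CPM.

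**Figure D3:**
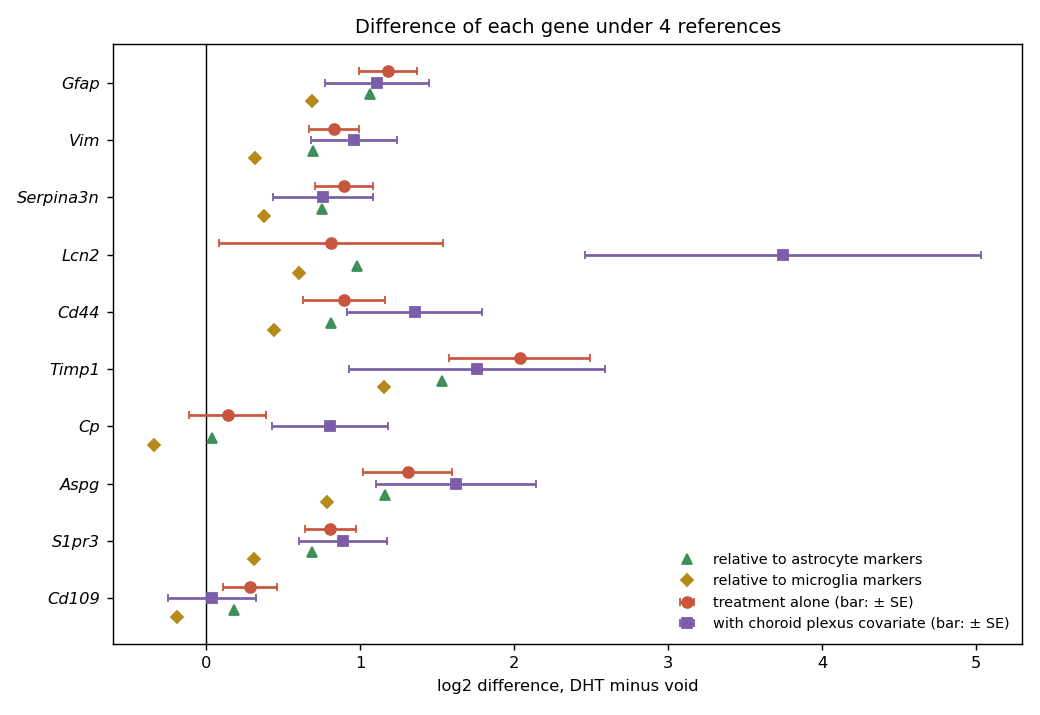
Log2 difference of each gene between DHT and void mice (n = 5 each): in edgeR with treatment alone, in edgeR with the choroid plexus markers as a covariate (bars, standard error), and relative to the mean of astrocyte or of microglia markers in the same mouse (no bar). Gfap stays between 0.69 and 1.18 under all 4, while Lcn2 moves from 0.60 to 3.75 and Cp crosses 0. The relative values are differences of mean log2 CPM, which carries a prior count, and are not edgeR fold changes. Shifts from edgeR to relative values therefore mix scale and reference markers, and the part of each was not tested. This holds above all for genes at few counts, Lcn2 and Timp1 among them.

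The rest of the reactive panels was described by counts, to be read against the 5.22% of all tested genes called higher. Of 4 other pan-reactive genes, 2 were higher: Cxcl10, a chemokine induced by interferon (3.11), and Osmr, the receptor for oncostatin M (1.27), in log2 fold change. Without void mouse 11, 1 of them was called, against 1.97% of all tested genes. Of 11 A1 genes, 4 were higher and 0 lower, with a median log2 fold change of 0.76: Gbp2 (1.24), Psmb8 (1.03), Ggta1 (0.95) and H2-D1 (0.86). The A1 count fell in fits that left out 1 mouse, in which calls over all tested genes fell as well. It was 0 without void mouse 11 or DHT mouse 1, with 1.97% and 2.23% of all tested genes called higher. It was 1 without void mouse 4 or DHT mouse 3 (2.77% and 2.93%), and 2 without void mouse 10 (3.09%). Gbp2 is an interferon-induced GTPase, Psmb8 a subunit of the immunoproteasome, and H2-D1 a class I histocompatibility gene whose near-identical relatives could share its reads. Of 10 tested A2 genes, 2 were higher, with a median of 0.41: Ptx3, a secreted pentraxin (2.18), and Cd14, the lipopolysaccharide co-receptor, found mainly on microglia and macrophages (1.31). Ptx3 had 6 to 13 counts per library with void and 24 to 76 with DHT, so it entered the test through the DHT libraries. Without void mouse 5, 4 of the A2 genes were called, against 3.8% of all tested genes. With at least 10 counts in every library, 1 A2 gene and 1 of the other pan-reactive genes were called, against 5.2% of all tested genes. Of 12 other genes described in disease-associated astrocytes, 7 were higher, led by C4b, S100a6 (1.06), Cd9 (1.04) and Fxyd1 (0.92), with a median of 0.45. Microglia markers were higher as well, and the part of microglia or other cells in the levels of these panel genes was not tested.

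Osmr stood at 7.004 to 14.3 CPM in void mice and at 15.6 to 33.3 CPM in DHT mice, without overlap (adjusted p = 0.0155, edgeR). Cxcl10 stood at 0.148 to 1.21 CPM in void mice and at 2.12 to 9.67 CPM in DHT mice, also without overlap (adjusted p = 0.00761, edgeR). All DHT mice were above all void mice for 5.39% of all tested genes. DHT mouse 2 was again the lowest of its group and DHT mouse 3 the highest for both.

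Among inducers of reactivity, 4 of 6 tested genes were higher: Il1b (1.63), which encodes the cytokine interleukin 1 beta, and C1qa (1.30), C1qc (1.16) and C1qb (1.13), which encode the chains of complement C1q, in log2 fold change. Il1b had 3 to 10 counts per library with void and 13 to 37 with DHT, so it entered the test through the DHT libraries. With at least 10 counts in every library, 3 genes of this list were called, against 5.2% of all tested genes. Il1a had a log2 fold change of 0.84 (adjusted p = 0.111, edgeR) and Lif one of 0.58 (adjusted p = 0.076). Tnf, Il6, Cntf and Osm had too few counts to be tested. Counts per library, void then DHT, were 1 to 3 and 6 to 13 for Tnf and 0 to 8 and 7 to 17 for Osm. They were 0 to 3 and 0 to 6 for Il6, and 0 to 7 and 2 to 4 for Cntf. In the gp130 pathway, 3 of 7 genes were higher: Socs3, the feedback inhibitor induced by STAT3 (0.94), the interleukin 6 receptor Il6ra (0.47) and Stat3 itself (0.37). That count was 0 without void mouse 11, where 1.97% of all tested genes were called higher. It was 1 when void mouse 4, DHT mouse 1 or DHT mouse 3 was left out (2.77%, 2.23% and 2.93% of all tested genes). The shared receptor gene Il6st had a log2 fold change of 0.16 (edgeR adjusted p = 0.356) and the kinase genes Jak1 and Jak2 ones of -0.03 and 0.02.

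Partners of the single genes were examined by list. Of 10 tested TIMP and metalloproteinase genes, 3 were higher: Mmp12, the macrophage elastase (2.86), Mmp2, a gelatinase (0.95), and Cd63, a surface partner of TIMP1 (0.84), in log2 fold change. Mmp12 had 1 to 8 counts per library with void and 19 to 58 with DHT, so it entered the test through the DHT libraries. With at least 10 counts in every library, 2 genes of this list were called. Timp2, Timp3 and Timp4 did not pass (0.10, 0.33 and -0.07). Of 9 CD44 ligand and hyaluronan genes, 1 was lower, Cemip, which takes part in hyaluronan breakdown (-0.32, adjusted p = 0.0445, edgeR), a call that was lost in 9 of the 10 fits that left out 1 mouse and held without DHT mouse 5. In the same list 0 were higher in edgeR or DESeq2 (2 at an unadjusted p under 0.05). Of 8 genes of the sphingosine 1-phosphate pathway, Sgpl1, the lyase that breaks the lipid down, was the 1 that rose (0.43). It was not called without void mouse 11, where 1.97% of all tested genes were called higher. The receptors S1pr1, S1pr2, S1pr4 and S1pr5 did not pass. Of 4 receptor and iron export genes tied to Lcn2 and Cp, 0 passed in edgeR, in DESeq2 or at an unadjusted p under 0.05, with Slc22a17 at 0.26 (adjusted p = 0.546) and Heph at -0.15 (adjusted p = 0.734). Serpina3c, the 1 tested neighbour of Serpina3n, had a log2 fold change of 0.41 (edgeR adjusted p = 0.561).

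**Figure D4:**
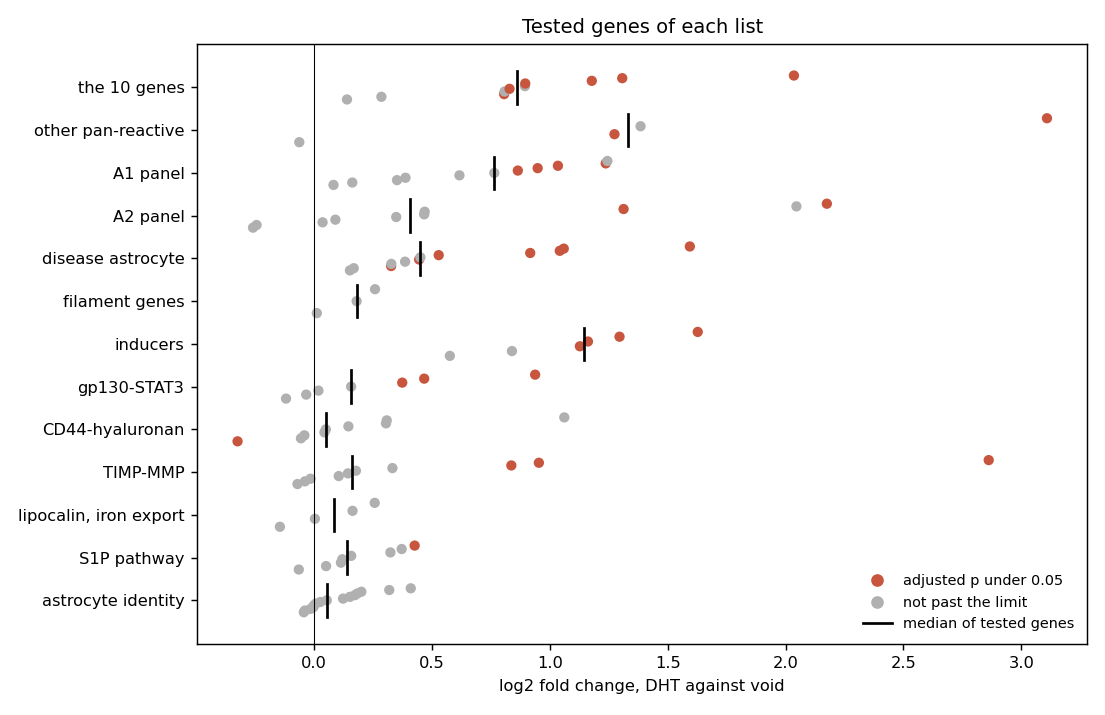
Log2 fold change (DHT against void, edgeR) of each tested gene in the reactive astrocyte set, the related lists and the astrocyte identity markers, with red for an adjusted p under 0.05, grey for the rest and a black line at each list's median. The 10 genes have a median of 0.86, the A1 panel 0.76, the A2 panel 0.41 and the astrocyte identity markers 0.05.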

How the data were processed

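Bulk RNA-seq covered 10 hippocampi, 1 library per mouse, 5 per group, with groups and mouse numbers taken from the sample titles. The authors deposited raw counts per gene: reads were trimmed with HTStream, aligned with STAR 2.7.10b and counted. The study's methods name mm10 while the submitters' processing notes list mm39 and GRCm39. Handling of strand and of multiply mapped reads is not given in the sources used here. Of 56884 identifiers, 51948 had a symbol in GENCODE M21, and 35 carried the same version as there. Gene coordinates in the build of the counts are therefore not printed, and the promoter positions are those of GRCm38.p6. These counts went into edgeR 4.0.16 under R 4.3.3, with TMM normalization, its expression filter by group and the quasi-likelihood test, and p values were adjusted by Benjamini-Hochberg over 17622 genes. DESeq2 1.42.0 was an alternative. Standard errors (SE) were taken from the log2 fold change and the F statistic of the same test. Log2 CPM used a prior count of 2. The edgeR fit was tested on simulated data. The genes and lists were chosen with earlier results of these data known. Named from each list were at most 4 called genes with the largest change, or 2 with the lowest p where none was called. Other names from the lists (Plec, Il1a, Lif, Il6st, Jak1, Jak2 and the TIMP and S1P receptor genes) were added after their values were seen. Some genes that the rule picks are not reported here. Alternatives were other tools, normalizations and filters, a choroid plexus covariate and leaving out each mouse.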

Additional observations from a re-analysis of the deposited data

Results flagged for a closer look

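Over the 10 genes and both treatments, 20 sets of 5 mice were searched for a mouse whose distance from its nearest neighbour was over 0.71 of the whole range. This was met in 2 of them, and chance gives about 1. Lcn2 was highest in void mouse 5, with a gap of 0.909 of the range. Cd109 was highest in DHT mouse 1, with a gap of 0.795 of the range. The cause was not tested for either.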

How the results depend on the processing

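No paired analysis was made, because mouse numbers do not name pairs and the labels do not give litter. The study states that littermates were randomized to treatment. It also states that mice were housed by treatment group, so cage cannot be told apart from treatment. The count of the 10 genes called higher, 6, was 7 with DESeq2 (6.73% of all tested genes called higher) and 7 with no filter beyond 1 count (2.69%). It was 6 with DESeq2 size factors (4.73%) or library size alone (5.48%). With at least 10 counts in every library it was 5 (5.2%), where 8 of the genes were tested, Lcn2 and Timp1 not. It was 3 at an unadjusted p with the fold limit (2.87%) and 0 with the choroid plexus covariate (0%). With 1 mouse left out it ranged from 2 to 7, and the share of all tested genes from 1.97% to 5.98%. The count with the fold limit, 3, was 0 with the covariate and ranged from 0 to 5 with 1 mouse left out, highest without DHT mouse 2. The count called lower was 0 under every one of these alternatives. Gfap and Vim passed in all 10 fits that left out 1 mouse, with a highest adjusted p of 0.0336 and 0.0479, S1pr3 in 8, Serpina3n in 7, Aspg in 6 and Timp1 in 5. Cp ranged from -0.0757 (without DHT mouse 3) to 0.294 with 1 mouse left out. Signs also reversed for Cp relative to microglia markers (-0.339), and for Cd109 relative to microglia markers (-0.193). Over all tested genes, the median log2 fold change stayed between -0.0331 and 0.0191 across the fits. No cause was tested for these shifts. Genes at a few counts per library in void mice, Lcn2, Timp1, Mmp12, Il1b and Ptx3 among them, are limited by depth.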
